A study of Mus musculus with 9 samples.

Results

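The 10 genes described here encode the TGF-beta ligands (Tgfb1, Tgfb2 and Tgfb3), their cell-surface receptors (Tgfbr1, Tgfbr2 and Tgfbr3) and the latent TGF-beta binding proteins (Ltbp1, Ltbp2, Ltbp3 and Ltbp4). They were taken by gene symbol from a count table of 52208 genes, and all 10 were found and had enough counts to be among the 16766 genes tested. The cells were 66cl4, a mouse mammary carcinoma line labelled as a model of breast cancer without hormone receptors or Her2, and messenger RNA was sequenced from 9 cultures in 3 groups of 3 biological replicates. In the scramble group a hairpin with no target (shScramble) was combined with Empty Vector. In the knockdown group the hairpin was shEya3, directed at a transcriptional coactivator and phosphatase, again with Empty Vector. The add-back group had shEya3 together with IKK2-SE, a mutant of the kinase IKK2 that is always active and turns on NF-kB. All cells were kept under puromycin at 2.5 µg/ml, and the vector-carrying cells were selected on mCherry. The design holds a single Eya3 hairpin and no group with the scramble hairpin and IKK2-SE. Whether replicates were transduced separately is not in the labels, and p-values then reflect the spread among these cultures alone, which may be technical.

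As background, TGF-beta is secreted as an inactive complex. The mature dimer stays bound to its own propeptide, and a latent binding protein tethers that complex to fibrillin and fibronectin in the matrix until integrins, proteases or thrombospondin release it. Active ligand is caught by TGFBR2, often presented by the co-receptor betaglycan (TGFBR3), and TGFBR2 then activates the kinase TGFBR1, which phosphorylates SMAD2 and SMAD3. In mammary epithelium the pathway is known for growth arrest, and in mammary carcinoma for invasion and for a shift towards a mesenchymal state.

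Levels are in CPM, a gene's count relative to its library's TMM-scaled total, and are given per library in the order of replicates 1, 2 and 3, and changes are log2 fold changes ± SE from edgeR's quasi-likelihood test over all 9 libraries, called at a Benjamini-Hochberg adjusted p of 0.05 over all tested genes. Library totals ran from 63601403 to 81534534 counts. Eya3 itself was at 63.0, 64.1 and 60.9 CPM in scramble, 25.3, 25.3 and 24.3 CPM in knockdown and 29.0, 26.0 and 24.7 CPM in add-back libraries, so every library with the hairpin lay below every scramble library. Ikbkb, the gene for IKK2, was at 46.6, 46.1 and 50.7 CPM in scramble, 43.8, 44.6 and 44.6 CPM in knockdown and 47.1, 49.2 and 49.4 CPM in add-back libraries (edgeR adjusted p = 0.0809 between add-back and knockdown). Whether the transgene would be counted under that symbol is not given in the labels, so this does not check them. The 10 epithelial markers summed to 597 to 651 CPM in scramble, 1257 to 1390 CPM in knockdown and 1032 to 1110 CPM in add-back libraries, nearly all of it Krt8. Krt8 rose with the knockdown and fell in add-back against knockdown cells, with group means of 628, 1329 and 1073 CPM (edgeR adjusted p = 8.08e-12 and 0.000265). Krt7 and Krt5 rose with the knockdown (0.59 and 2.76) and Krt14 and Krt19 fell by 2.02 and 3.29, all at no more than 3.79 CPM in any library. Krt18, Epcam, Cdh1, Cldn4 and Esrp1 did not pass 0.262 CPM in any. Among markers of other cells, the leukocyte gene Ptprc and the macrophage gene Adgre1 did not pass 0.157 CPM in any library. The summed level of 6 macrophage markers ran from 19.8 to 21.2 CPM in scramble, from 5.00 to 5.59 CPM in knockdown and from 7.41 to 8.32 CPM in add-back libraries, and nearly all of it was Cd68 and Mrc1. The 6 endothelial markers summed to 4.65 to 5.38, 0.558 to 1.04 and 1.12 to 1.53 CPM in the same order, most of it Cdh5 in the scramble libraries. Emcn of that list went the other way with the knockdown, from a mean of 0 to 0.162 CPM (edgeR adjusted p = 0.000105). The 6 fibroblast markers summed to 48.2 to 49.9, 44.2 to 48.9 and 52.9 to 56.4 CPM, most of it Pdgfra, which fell by 0.27 with the knockdown (edgeR adjusted p = 0.000102). Other fibroblast markers moved the other way: Pdgfrb had group means of 1.24, 7.08 and 10.7 CPM and was called higher at each step (edgeR adjusted p = 2.84e-11 and 0.000538), as was Dcn at 0, 0.0647 and 0.713 CPM (edgeR adjusted p = 0.00465 and 0.000379). Thy1, Lum and Col6a3 did not pass 0.0528 CPM in any library. The 6 lymphocyte markers did not pass a sum of 0.384 CPM in any library. The 4 platelet markers summed to 3.69 to 4.83 CPM in scramble, 2.31 to 2.89 CPM in knockdown and 2.37 to 2.93 CPM in add-back libraries. The part of these marker levels in the results below was not tested. In bulk RNA, fewer cells of a type and less RNA per cell cannot be told apart.

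All 10 genes were transcribed in every library, with the fewest counts for Tgfb2 (230 in an add-back library) and the most for Tgfbr2 (43926 in a scramble library). All 10 are protein-coding genes, with positions below on GRCm38 (mm10). Levels of different genes were compared per kilobase of exon, with the union of all GENCODE exons as the length. In the scramble cells Tgfbr2, the receptor that binds ligand first, was highest at 67.5 ± 1.28 CPM per kb (SD, n = 3). It was followed by Ltbp4 at 41.0 ± 1.17, Tgfb1 at 27.1 ± 0.592 and Ltbp3 at 22.9 ± 1.16 CPM per kb. Tgfbr3 at 10.1 ± 0.252, Ltbp2 at 8.77 ± 0.382, Ltbp1 at 7.58 ± 0.226 and Tgfbr1 at 5.95 ± 0.383 CPM per kb came next. Tgfb3 at 2.35 ± 0.0542 and Tgfb2 at 1.64 ± 0.235 CPM per kb were lowest, and no neighbours in this order overlapped between libraries. In the knockdown cells the order became Tgfbr2 at 47.3, Ltbp3 at 22.9, Ltbp1 at 22.4, Tgfbr3 at 16.6, Tgfb1 at 15.6, Ltbp4 at 11.8, Tgfbr1 at 7.96, Ltbp2 at 2.59, Tgfb3 at 1.28 and Tgfb2 at 0.589 CPM per kb. The libraries of Ltbp3 and Ltbp1 overlapped there, as did those of Tgfbr3 and Tgfb1. In the add-back cells Tgfbr2 at 37.6, Tgfbr3 at 27.8 and Ltbp3 at 26.1 CPM per kb led, with the last pair overlapping. Ltbp1 at 19.5 and Tgfb1 at 17.1 CPM per kb followed, then Ltbp4 at 12.0 and Tgfbr1 at 10.9 CPM per kb, whose libraries overlapped. Ltbp2 at 9.44, Tgfb3 at 1.20 and Tgfb2 at 0.616 CPM per kb closed the order. The order depends on the length used. With the longest coding transcript, an alternative chosen after seeing the data, Tgfb1 stood at 62.9, Ltbp3 at 40.0 and Ltbp1 at 12.2 CPM per kb in the scramble cells. In the add-back cells Ltbp3, at 45.5 CPM per kb, then led ahead of Tgfb1 at 39.8 and Tgfbr2 at 38.0 CPM per kb. Tgfb3 and Tgfb2 were lowest in every group under both lengths.

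**Figure D1:**
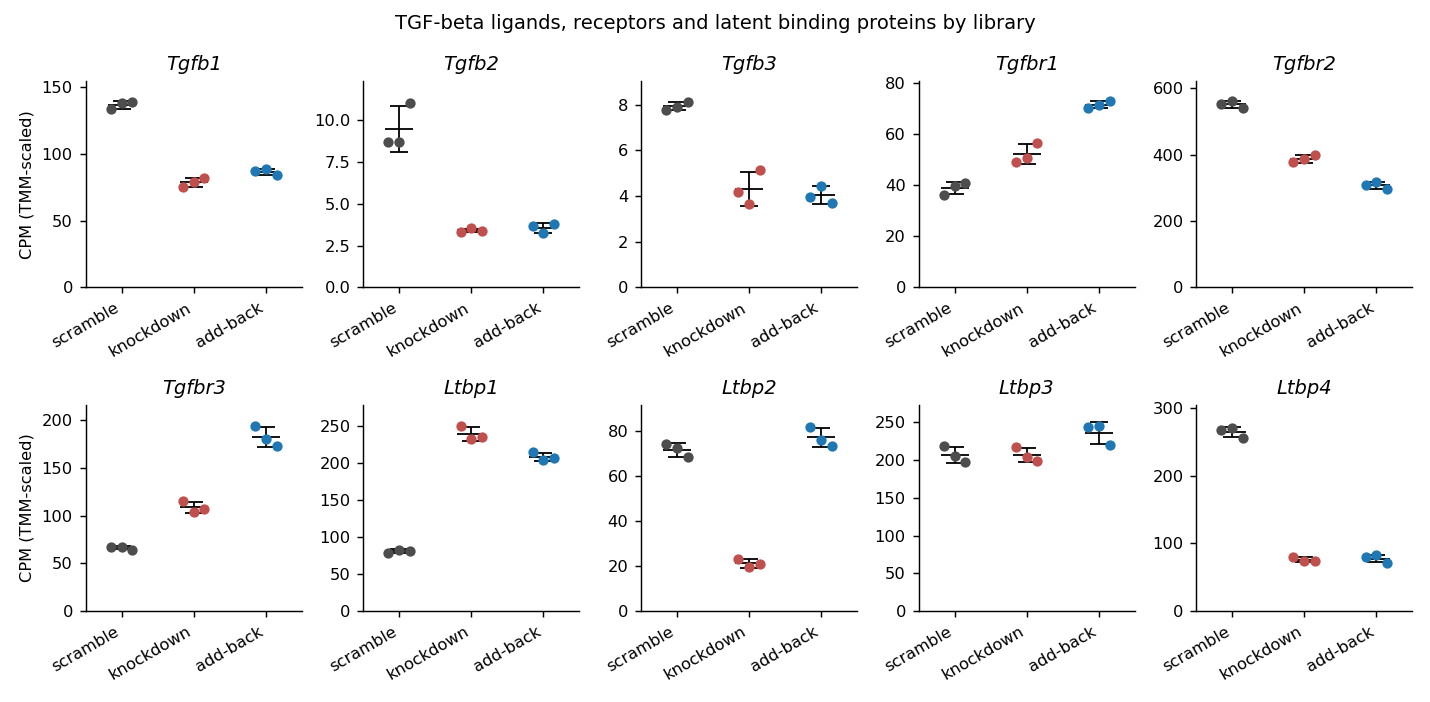
Level of each of the 10 genes in each library (points, CPM scaled by TMM, linear axis from 0), with the mean and SD of the 3 libraries per group (bars). Ltbp2 is low in the 3 knockdown libraries alone, while Ltbp4 is low and Ltbp1 high in all 6 libraries with the Eya3 hairpin.

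Knockdown cells were set against scramble cells for the effect of lower Eya3. All 3 ligand genes fell, as did the ligand-binding receptor Tgfbr2 and the latent binding proteins Ltbp2 and Ltbp4. The kinase receptor Tgfbr1, the co-receptor Tgfbr3 and the latent binding protein Ltbp1 rose. Thus 6 of the 10 fell (29.9% of all tested genes did), 3 rose (27.7% of all) and Ltbp3 did not pass the test. Calls in either direction numbered 9 of 10, beside 57.5% of all tested genes, and the groups' libraries did not overlap for the same number, beside 63.6% of all. The share called was larger without low-count genes. Of the 12361 genes with at least 1 CPM in at least 3 libraries, 8430 were called. The median change of the 10 was -0.65 and their median size without sign 0.84, against -0.00 and 0.32 over all tested genes. At least 2-fold changes were called in 4 of the 10, beside 14.7% of all tested genes. Over the 3 groups together, edgeR's F test called 10 of 10, beside 60.1% of all.

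Tgfb1 (chromosome 7, 25687002 to 25705077, plus strand), the main ligand in these cells, was at 133, 138 and 139 CPM in scramble and 75.4, 78.8 and 81.8 CPM in knockdown libraries. The groups did not overlap, and Tgfb1 fell by 0.80 ± 0.04, or 1.74-fold (edgeR adjusted p = 5.16e-11). Tgfb2 (chromosome 1, 186622792 to 186705989, minus strand), the ligand whose presentation depends most on betaglycan, was at 8.69, 8.69 and 11.1 CPM against 3.33, 3.54 and 3.36 CPM. It fell by 1.47 ± 0.11, or 2.78-fold (edgeR adjusted p = 7.31e-09), and every knockdown library lay below every scramble library. Tgfb3 (chromosome 12, 86056745 to 86079041, minus strand) was at 7.77, 7.91 and 8.13 CPM against 4.17, 3.66 and 5.13 CPM. Its fall was 1.84-fold (edgeR adjusted p = 5.19e-06), again without overlap, although replicate 3 of the knockdown cells lay closer to the scramble cells than the other two. The summed ligand level went from 30.2 to 31.9 CPM per kb in the scramble to 16.8 to 18.3 CPM per kb in the knockdown libraries. Tgfb1 made up 87.2% ± 0.638 of it (SD, n = 3) in the scramble and 89.3% ± 0.845 in the knockdown cells, or 93.7% and 94.9% with the longest coding transcript as the length.

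The receptors moved in different directions. Tgfbr2 (chromosome 9, 116084293 to 116175360, minus strand) stood at 553, 562 and 541 CPM in scramble and 377, 387 and 398 CPM in knockdown libraries. It fell by 0.51 ± 0.04 (edgeR adjusted p = 6.78e-09), with every knockdown library below every scramble library. Tgfbr1 (chromosome 4, 47353222 to 47414931, plus strand), its kinase partner, was at 36.1, 39.6 and 40.9 CPM in scramble and 49.0, 50.7 and 56.4 CPM in knockdown libraries. Tgfbr1 rose by 0.42 ± 0.06 (edgeR adjusted p = 8.14e-06). Tgfbr3 (chromosome 5, 107106570 to 107289629, minus strand) was at 67.6, 66.9 and 64.5 CPM in scramble and 115, 104 and 106 CPM in knockdown libraries. Tgfbr3 rose by 0.71 ± 0.05 (edgeR adjusted p = 2.22e-09), and both rises left no overlap between the groups. Of the 20 tested genes on each side of Tgfbr3, 22 rose and 2 fell, with a median of 0.44. By as much as Tgfbr3 or more, 9 of them rose. The 40 neighbours of Tgfbr1 (9 rose, 10 fell) and of Tgfbr2 (9 rose, 13 fell) had medians of -0.05 and -0.01. Among the ligands, the neighbours had medians of -0.38 around Tgfb2 (3 rose, 21 fell), -0.19 around Tgfb1 (7 rose, 21 fell) and -0.12 around Tgfb3 (7 rose, 16 fell).

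The largest changes of the 10 were in 3 of the 4 latent binding proteins. Ltbp1 (chromosome 17, 75005568 to 75392512, plus strand), a carrier of latent TGF-beta, was at 78.5, 83.4 and 81.3 CPM in scramble and 250.1, 233 and 236 CPM in knockdown libraries. It rose by 1.56 ± 0.04, or 2.96-fold (edgeR adjusted p = 1.57e-14). Ltbp4 (chromosome 7, 27305136 to 27337692, minus strand), a carrier of latent TGF-beta that also serves elastic fibre assembly, went the other way, with 268, 270.1 and 256 CPM against 79.9, 74.3 and 74.6 CPM. Its fall of 3.47-fold (edgeR adjusted p = 4.78e-14) left the libraries far apart. Ltbp2 (chromosome 12, 84783212 to 84876532, minus strand), which is not known to bind latent TGF-beta and associates with fibrillin microfibrils, was at 74.5, 72.4 and 68.3 CPM against 23.4, 19.5 and 20.8 CPM. It fell by 1.76 ± 0.06, or 3.38-fold (edgeR adjusted p = 8.5e-13). Ltbp3 (chromosome 19, 5740904 to 5758532, plus strand), another carrier, was at 219, 206 and 198 CPM against 217, 205 and 199.6 CPM. The groups overlapped, and the 95% interval of its difference ran from -0.11 to 0.10 (edgeR adjusted p = 0.98). The summed latent binding protein level ran from 77.4 to 82.0 CPM per kb in the scramble and from 58.1 to 62.6 CPM per kb in the knockdown libraries, and its make-up differed. Ltbp4 went from 51.1% ± 0.499 to 19.8% ± 0.0612 of the sum, and Ltbp1 from 9.46% ± 0.452 to 37.6% ± 0.301. With the longest coding transcript as the length these shares were 43.9% and 15.2% for Ltbp4 and 10.9% and 38.6% for Ltbp1.

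**Figure D2:**
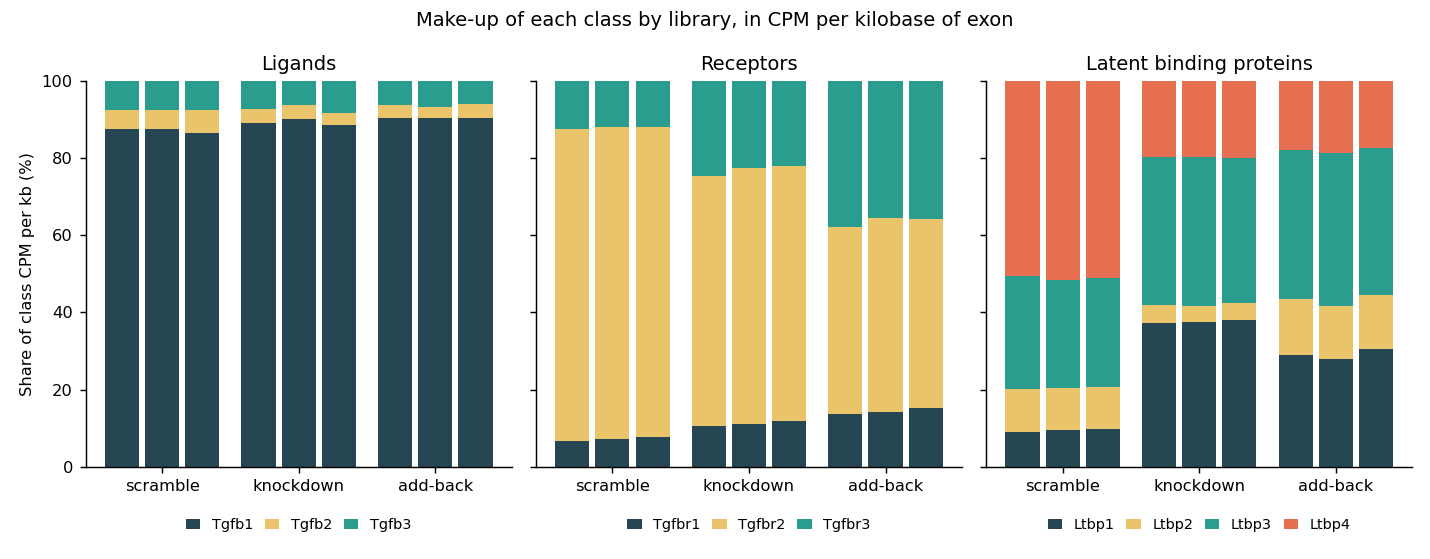
Share of each gene in the summed level of its class (percent of CPM per kilobase of exon), 1 bar per library, 3 bars per group. The share of Ltbp4 is lower and that of Ltbp1 higher in the 6 hairpin libraries, and the share of Tgfbr3 among the receptors is larger in the knockdown and again in the add-back libraries, while Tgfb1 makes up 86.5% or more of the ligands in each library.

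Ltbp1, Ltbp2 and Ltbp4 changed most, and their upstream sequences are shown with that of Tgfb1, because they flank the genes with the largest changes and the main ligand. Which start these cells use was not tested. Each run is the 250 bases before a start site in RefSeq's table (build GRCm38.p6), the most upstream one for Ltbp1 and Ltbp4, which have others, read 5′ to 3′ on the gene's strand, with capitals for matches to the motifs searched on both strands. Of the 10 genes, 8 matched an entry in that table by symbol. Ltbp1 is chr17:75005279-75005528 on the plus strand and Ltbp2 is chr12:84876492-84876741 on the minus strand. Ltbp4 is chr7:27337613-27337862 on the minus strand and Tgfb1 is chr7:25686752-25687001 on the plus strand.
Ltbp1: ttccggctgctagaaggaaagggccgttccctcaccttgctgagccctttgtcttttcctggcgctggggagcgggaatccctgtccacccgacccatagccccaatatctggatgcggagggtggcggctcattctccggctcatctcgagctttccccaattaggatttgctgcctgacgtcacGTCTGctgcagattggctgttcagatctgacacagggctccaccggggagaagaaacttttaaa
Ltbp2: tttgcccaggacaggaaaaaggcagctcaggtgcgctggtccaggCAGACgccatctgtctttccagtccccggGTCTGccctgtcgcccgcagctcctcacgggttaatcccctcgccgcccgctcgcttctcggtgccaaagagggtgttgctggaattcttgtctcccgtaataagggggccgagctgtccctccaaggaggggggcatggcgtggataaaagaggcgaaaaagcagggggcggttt
Ltbp4: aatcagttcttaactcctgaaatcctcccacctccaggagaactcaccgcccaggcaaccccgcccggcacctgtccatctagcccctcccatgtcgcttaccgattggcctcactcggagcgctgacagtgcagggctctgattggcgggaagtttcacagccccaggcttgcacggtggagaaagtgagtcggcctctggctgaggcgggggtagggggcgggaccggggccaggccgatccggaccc
Tgfb1: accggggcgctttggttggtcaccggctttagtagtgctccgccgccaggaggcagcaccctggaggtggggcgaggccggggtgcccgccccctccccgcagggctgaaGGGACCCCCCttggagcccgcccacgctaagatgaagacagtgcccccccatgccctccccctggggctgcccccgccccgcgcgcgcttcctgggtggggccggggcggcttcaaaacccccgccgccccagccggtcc
The motifs were the SMAD box CAGAC, the AP-1 site TGANTCA, the MEF3 site TCAGGTT, known for the DNA-binding partners of EYA proteins, and the kappaB consensus of NF-kB. Their matches were found in 42.2%, 6.75%, 3.49% and 7.25% of the 32851 promoters in the table. The Ltbp1 window held 1 SMAD box and the Ltbp2 window 2, and no other motif was matched in either. The Ltbp4 window held none of the 4 motifs. In the Tgfb1 window the capitals mark 1 kappaB consensus match, which begins 140 bases before the start. At these frequencies a match is a description of the letters only.

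Of the 20 tested genes on each side of Ltbp1, 32 rose and 3 fell in the knockdown cells, with a median of 0.48, and 2 of them rose by as much as Ltbp1 or more. The 40 neighbours of Ltbp4 (4 rose, 22 fell) had a median of -0.24, with 1 falling as far, and part of that window is shared with Tgfb1, which lies 1600 kb away. Around Ltbp3 6 rose and 18 fell, with a median of -0.21. The 40 neighbours of Ltbp2 (11 rose, 12 fell) had a median of 0.04, and part of that window is shared with Tgfb3, which lies 1180 kb away. The only neighbour of Ltbp2 with as large a fall was D030025P21Rik (chromosome 12, 84875769 to 84879755, plus strand), a non-coding gene that runs antisense across the start of Ltbp2 and was singled out after its values were seen. It was at 4.33, 5.62 and 4.85 CPM in scramble, 1.27, 0.777 and 1.48 CPM in knockdown and 4.92, 4.16 and 5.21 CPM in add-back libraries. The antisense gene fell by 2.07 ± 0.18 with the knockdown (edgeR adjusted p = 5.15e-08) and was higher by 2.02 ± 0.18 in the add-back than in the knockdown cells (edgeR adjusted p = 1.36e-06). Its exons overlap 9.34% of the exon bases of Ltbp2, and the strand setting of the counting is not known, so reads from the pair cannot be told apart in that stretch.

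**Figure D3:**
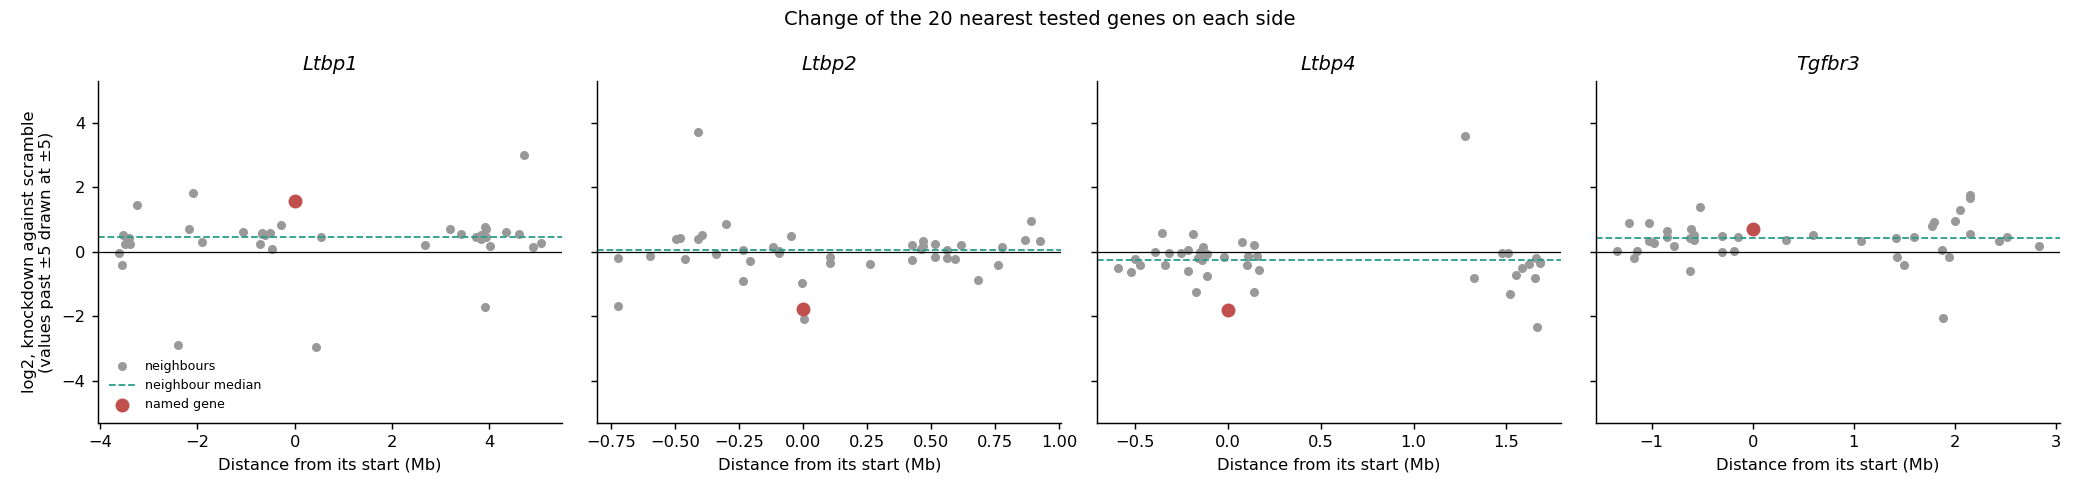
Log2 change between knockdown and scramble cells of Ltbp1, Ltbp2, Ltbp4 and Tgfbr3 (red) and of the 20 nearest tested genes on each side (grey), against the distance of their starts in megabases, with the neighbours' median as a dashed line. The medians are 0.48 around Ltbp1, 0.04 around Ltbp2, -0.24 around Ltbp4 and 0.44 around Tgfbr3, and Ltbp1, Ltbp2 and Ltbp4 lie well away from theirs.

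Add-back cells were set against knockdown cells for the effect of active IKK2 on a background of low Eya3. Ltbp2 rose most, Tgfbr3 and Tgfbr1 rose again beyond their knockdown levels, and Tgfb1 and Ltbp3 rose slightly. Tgfbr2 and Ltbp1 fell. In all, 5 of the 10 rose (5.61% of all tested genes did), 2 fell (4.82% of all) and 3 did not pass the test. Calls in either direction numbered 7 of 10, beside 10.4% of all tested genes, and the libraries of those 7 did not overlap, beside 24.7% of all. Of the 12361 genes with at least 1 CPM in at least 3 libraries, 1710 were called. The median size of the change without sign was 0.19 for the 10 and 0.10 for all tested genes. This comparison shares the knockdown libraries with the one before.

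Ltbp2 stood at 81.8, 76.3 and 73.6 CPM with IKK2-SE, where the 3 knockdown libraries had 23.4, 19.5 and 20.8 CPM. It rose by 1.86 ± 0.06, or 3.64-fold (edgeR adjusted p = 6.77e-12), a change that 1.40% of tested genes equalled or passed in size. Its 40 neighbours had a median of -0.01, and D030025P21Rik was the only one to rise as far. Tgfbr3, the betaglycan gene, was at 194, 180.4 and 173 CPM, above its 3 knockdown libraries. Tgfbr3 rose by 0.75 ± 0.05, or 1.68-fold (edgeR adjusted p = 1.88e-08). The 40 neighbours of Tgfbr3 had a median of 0.06, and 5 of them rose by as much or more. The kinase receptor Tgfbr1 was at 70.1, 71.3 and 72.9 CPM, again with no overlap, and rose by 0.46 ± 0.06 (edgeR adjusted p = 3.62e-05). Tgfbr2, in contrast, was at 308, 319 and 296 CPM and fell by 0.33 ± 0.04 (edgeR adjusted p = 1.92e-05). The share of Tgfbr3 in the summed receptor level was thus 12.1% ± 0.226 in the scramble, 23.1% ± 1.42 in the knockdown and 36.4% ± 1.32 in the add-back cells (SD, n = 3), while that of Tgfbr2 was 80.7% ± 0.305, 65.8% ± 0.970 and 49.2% ± 1.04.

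The ligands and the other latent binding proteins changed less or did not pass. Tgfb1 was at 87.2, 88.3 and 83.9 CPM, all above the knockdown libraries, and rose by 0.14 ± 0.04 (edgeR adjusted p = 0.0392). That call was lost in 7 of 17 alternatives, over which the adjusted p ran from 0.00833 to 0.137. They were no filter (0.0709), only the 2 groups (0.0638), and the fits without scramble replicate 2 (0.0605), knockdown replicate 1 (0.137) or 2 (0.0971), or add-back replicate 1 (0.0933) or 2 (0.122). Tgfb2 was at 3.68, 3.25 and 3.77 CPM and Tgfb3 at 3.97, 4.45 and 3.71 CPM, and both overlapped the knockdown libraries. The 95% interval of the difference ran from -0.19 to 0.31 for Tgfb2 (edgeR adjusted p = 0.828). For Tgfb3 it ran from -0.35 to 0.16 (edgeR adjusted p = 0.733). Ltbp1 was at 215, 204 and 208 CPM and fell by 0.20 ± 0.04 (edgeR adjusted p = 0.00285). Ltbp3 was at 244, 246 and 219.9 CPM and rose by 0.19 ± 0.05 (edgeR adjusted p = 0.0216), a call lost without knockdown replicate 2 (0.0847) or 3 (0.0868) or add-back replicate 1 (0.0755) or 2 (0.0906). Ltbp4 was at 79.5, 82.5 and 71.4 CPM, overlapped the knockdown libraries and differed by 0.03, with an interval from -0.08 to 0.14 (edgeR adjusted p = 0.814).

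The add-back and scramble cells were compared to give the distance that remained with both the hairpin and active IKK2. Tgfb1, Tgfb2, Tgfb3, Tgfbr2 and Ltbp4 were lower in the add-back cells, Tgfbr1, Tgfbr3, Ltbp1 and Ltbp3 were higher, and Ltbp2 did not pass the test. That is 5 of 10 lower (28.7% of all tested genes), 4 of 10 higher (27% of all) and 9 of 10 called in either direction (55.8% of all), with no overlap of libraries for those 9 (61.1% of all). Of the 12361 genes with at least 1 CPM in at least 3 libraries, 8218 were called. Ltbp4 was 3.40-fold lower and Tgfb2 2.66-fold lower (edgeR adjusted p = 6.71e-14 and 1.41e-08). Tgfbr3 was 2.75-fold higher and Ltbp1 2.58-fold higher (edgeR adjusted p = 3.86e-13 and 9.33e-14). For Ltbp2 the add-back libraries at 81.8, 76.3 and 73.6 CPM overlapped the scramble libraries at 74.5, 72.4 and 68.3 CPM. Its difference was 0.11, with an interval from -0.02 to 0.23 (edgeR adjusted p = 0.138).

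**Figure D4:**
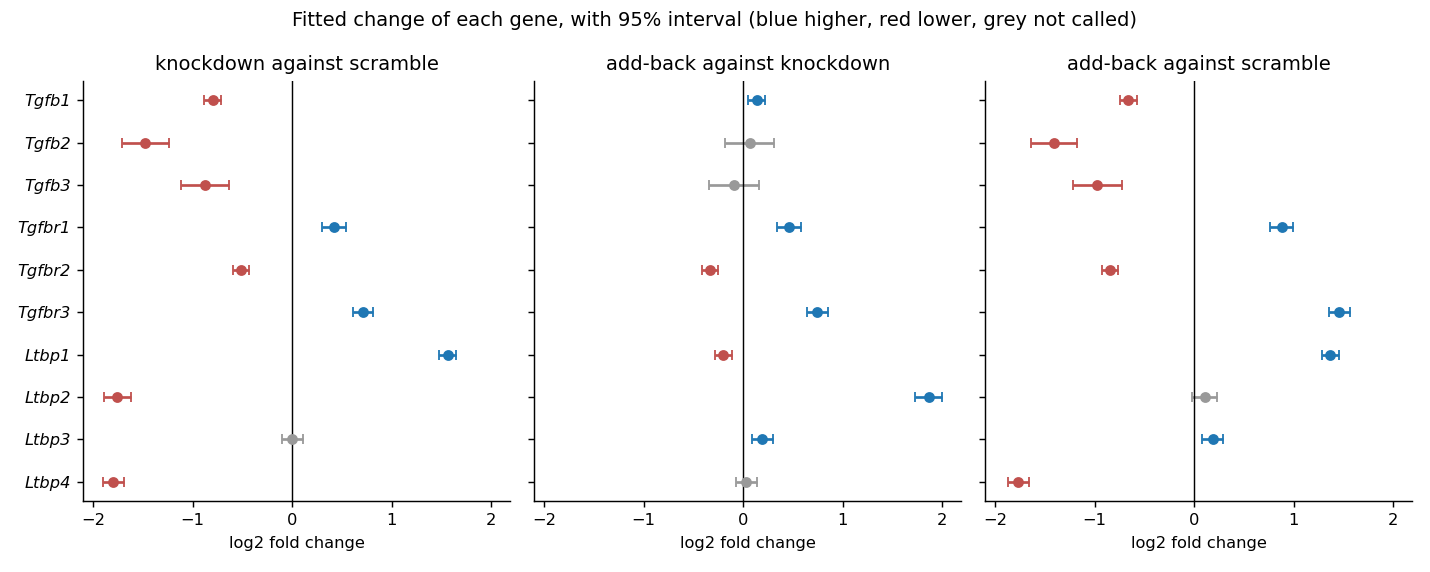
Fitted log2 fold change of each gene with its 95% interval in the 3 comparisons, coloured by call. Ltbp2 lies at -1.76, 1.86 and 0.11 and Tgfbr3 at 0.71, 0.75 and 1.46, while Tgfb2, Tgfb3 and Ltbp4 are called in both comparisons with scramble and not between add-back and knockdown cells.

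Other genes of the pathway were taken from 6 lists that hold 136 genes, of which 96 were tested. Between knockdown and scramble cells 41 of the 96 rose and 28 fell, or 71.9% called beside 57.5% of all tested genes. Between add-back and knockdown cells 15 rose and 16 fell, or 32.3% beside 10.4%. The lists were chosen with results known, and these shares are descriptions. For the counts per list below, 27.7% of all tested genes rose and 29.9% fell with the knockdown. Between add-back and knockdown cells 5.61% of all rose and 4.82% fell. Among 16 tested genes that store or activate the latent complex, 6 rose and 8 fell with the knockdown, with a list median of -0.23. Thbs1, the thrombospondin that can activate latent TGF-beta, rose by 5.24 ± 0.04, from 29.7, 30.5 and 29.0 CPM to 1096, 1144 and 1128 CPM (edgeR adjusted p = 4.3e-20), with no overlap. The gelatinase gene Mmp9 fell by 3.44 ± 0.11 and the membrane protease gene Mmp14 by 0.86 ± 0.04, while the integrin gene Itgb5 rose by 1.00 ± 0.05. Furin, the protease that cleaves the TGF-beta proproteins and a gene chosen after its values were seen, was at 48.3, 46.3 and 47.5 CPM in scramble and 25.8, 25.6 and 26.7 CPM in knockdown libraries. It fell by 0.86 (edgeR adjusted p = 6.96e-11). In the add-back against the knockdown cells 4 of the 16 rose and 2 fell, with a list median of 0.08. Emilin1, a matrix glycoprotein that restrains processing of the TGF-beta precursor, rose by 1.13 ± 0.12, to 4.29, 4.04 and 4.20 CPM from 1.77, 1.82 and 2.13 CPM. Mmp9 rose by 1.19 ± 0.13. Thbs1 fell by 0.42 ± 0.04 and Mmp14 by 0.16 ± 0.04 (edgeR adjusted p = 0.0184), the latter a call lost without knockdown replicate 1 (0.0548) or 2 (0.0658) or add-back replicate 1 (0.0651) or 3 (0.086).

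Among 11 other receptors and co-receptors, 3 rose, 2 fell and 6 did not pass with the knockdown, with a median of 0.04. The share called was smaller than that of all tested genes. Cd109, a co-receptor that dampens TGF-beta signalling, rose by 2.30 ± 0.07, from 12.3, 11.3 and 11.3 CPM to 62.4, 53.8 and 54.9 CPM. The activin receptor genes Acvr1b and Acvr2a rose by 0.39 ± 0.06 and 0.25 ± 0.06, and Eng, the co-receptor endoglin, fell by 0.79 ± 0.15. In the add-back against the knockdown cells none rose and 2 fell, Cd109 by 0.42 ± 0.07 and the type I receptor gene Acvrl1 by 0.79 ± 0.14. Bmpr1a differed by -0.08 there (edgeR adjusted p = 0.475). Among 11 other ligands, 3 rose and 3 fell with the knockdown, a share close to that of all tested genes. The bone morphogenetic protein gene Bmp4 rose by 1.03 ± 0.04 and Inhba, which encodes an activin subunit, by 1.00 ± 0.08, while Gdf11 fell by 0.94 ± 0.08. Gdf5 was at 0.294, 0.166 and 0.146 CPM in scramble, 2.24, 2.33 and 2.62 CPM in knockdown and 13.3, 12.1 and 11.4 CPM in add-back libraries. It was the 1 ligand of this list to pass between add-back and knockdown cells, with a rise of 2.36 ± 0.12 (edgeR adjusted p = 8.23e-10), and Bmp6, at no more than 0.424 CPM, differed by 1.66 (edgeR adjusted p = 0.0727).

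Among 6 extracellular antagonists, 3 rose and 2 fell with the knockdown. Fst, the activin-binding follistatin, rose by 3.62 ± 0.08, from 1.96, 1.95 and 2.23 CPM to 25.2, 26.2 and 24.4 CPM. Grem1, an antagonist of bone morphogenetic proteins, rose by 2.94 ± 0.07, and Fstl3, a follistatin relative, fell by 1.72 ± 0.09. Bmper, another regulator of bone morphogenetic proteins, fell by 0.37 ± 0.07 (edgeR adjusted p = 0.000212). In the add-back against the knockdown cells Grem1 and Bmper rose by 0.53 ± 0.06 and 0.72 ± 0.07, among 3 rises and 1 fall. The fall was that of Fstl3, by 0.36 ± 0.09 (edgeR adjusted p = 0.025), which was lost without knockdown replicate 1 (0.0948) or 2 (0.079) or add-back replicate 1 (0.089) or 3 (0.0852). Among 24 SMADs and their regulators, 12 rose and 6 fell with the knockdown, with a median of 0.11. Smad4, the shared partner of the receptor-activated SMADs, rose by 0.86 ± 0.04, from 109, 113 and 115 CPM to 203, 207 and 202 CPM. Smad3, a substrate of TGFBR1, rose by 0.63 ± 0.05 with the knockdown and by a further 0.39 ± 0.05 in the add-back cells. Smad2, the other substrate and a gene chosen after its values were seen, rose by 0.43 with the knockdown (edgeR adjusted p = 8.86e-08). The inhibitory Smad6 rose by 1.17 ± 0.10, while Smad7, an inhibitor that TGF-beta itself induces, was at 49.6, 49.1 and 47.2 CPM in scramble, 38.1, 38.8 and 37.9 CPM in knockdown and 30.6, 33.6 and 32.6 CPM in add-back libraries. Smad7 fell by 0.35 ± 0.05 and then by 0.25 ± 0.05, and Usp15, a deubiquitinase that acts on the receptor complex, fell by 0.49 ± 0.04 with the knockdown. Tgif1, a SMAD corepressor, rose by 0.14 ± 0.03 with the knockdown and fell by 0.15 ± 0.03 in the add-back against the knockdown cells.

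Among 28 tested TGF-beta target genes, 14 rose and 7 fell with the knockdown, with a median of 0.34. Col3a1, a fibrillar collagen, had no counts in the scramble libraries and was at 13.3, 14.0 and 13.0 CPM in knockdown libraries, at least 976-fold higher if the scramble group is set at a summed floor of 3 counts. Col1a2 rose from at most 0.0896 CPM to 4.26, 3.67 and 4.60 CPM. Nox4, an NADPH oxidase, had 1 count in the scramble libraries and was at 3.68, 3.59 and 4.32 CPM in knockdown libraries. Hmga2, a chromatin protein, fell by 1.17 ± 0.04, from 518, 515 and 521 CPM to 233, 231 and 228 CPM. The matricellular gene Ccn2, a target chosen after its values were seen, was at 29.1, 29.7 and 32.2 CPM in scramble and 208, 247 and 272 CPM in knockdown libraries. In the add-back against the knockdown cells 5 of the 28 targets rose and 7 fell, with a median of -0.00. Bhlhe40, Cdkn1a and Col1a2, the 3 with the smallest adjusted p, fell by 0.48 ± 0.05, 0.49 ± 0.06 and 1.33 ± 0.14. Acta2 and Id3 rose by 2.52 ± 0.59 and 0.57 ± 0.09. Id1, Junb and Hmga2 rose by 0.28 ± 0.06, 0.23 ± 0.04 and 0.20 ± 0.04. Of these 5 rises, all but that of Hmga2 were chosen after their values were seen.

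**Figure D5:**
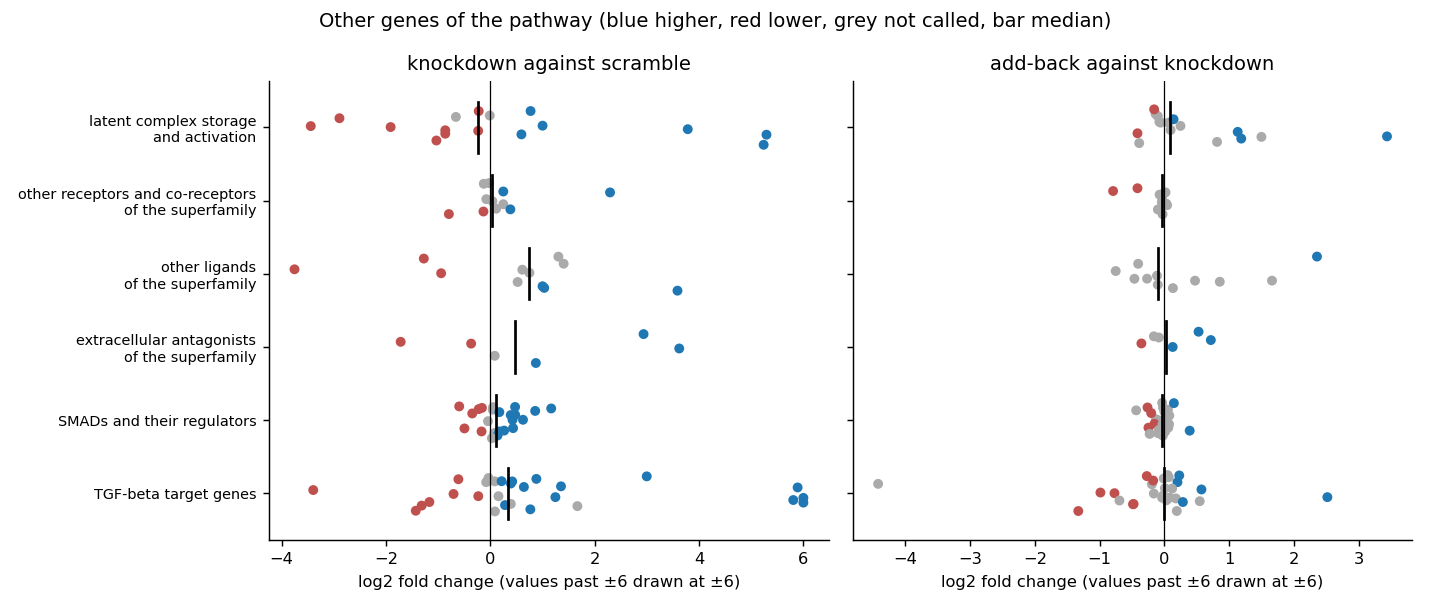
Log2 fold change of every tested gene of the 6 pathway lists (points, coloured by call) with the list median (bar), for knockdown against scramble and add-back against knockdown. The medians between knockdown and scramble cells run from -0.23 for the storage and activation genes to 0.75 for the other ligands, and those between add-back and knockdown cells from -0.10 to 0.08.

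The genes whose levels ran most like a member were sought for the 3 members with the largest F over the groups, by Pearson's r of log2 CPM over the 9 libraries among 10906 genes, as a description. These libraries share their group structure and depth. For Ltbp4 they were Rapgef1, Gna11 and Axl, each at r = 0.999, and 1300 genes reached 0.95. For Ltbp1 they included Uba6 at 0.999 and Kcnk10 at 0.998, and 1349 genes reached 0.95. For Ltbp2, low in the knockdown libraries alone, they were Neurl3, Micall2 and Lrig1, each at 0.993, and 37 genes reached 0.95.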

How the data were processed

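RNA from 66cl4 cultures was made into messenger RNA libraries with a NuGEN kit, per the labels' protocols. The authors deposited raw counts, 1 whole number per gene symbol and library. Per the submitters' processing notes, the tools were STAR, FastQC and MultiQC and the build mm10. What counted the reads, on which annotation and strand, is not given in the sources used here. Columns were matched to libraries by name, and those of the 6 hairpin libraries carry another hairpin number than the sample titles, so they were matched on arm and replicate.

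Counts were filtered with filterByExpr (minimum count 10, minimum total 15) and TMM-scaled. They were tested in R 4.3.3 by edgeR 4.0.16 (quasi-likelihood, robust, group only, 6 residual degrees of freedom). The procedure was also run on simulated data in which few genes changed. Changes as broad as those between knockdown and scramble cells were not simulated. SE is the change divided by the square root of F. The common biological coefficient of variation was 5.26%. Counts of replicates differed by more than sampling noise (chi-square over its degrees of freedom 3.74 to 19.8). Alternatives used DESeq2 1.42.0, limma 3.58.1, other scalings and filters, a replicate block, the 2 groups alone and each library left out. Positions and lengths are from GENCODE for GRCm38, which matched 96.9% of tested genes. Named list genes were the 4 with the smallest adjusted p per list with the knockdown and the 3 with the smallest between add-back and knockdown cells, and genes outside this rule are marked. A gene that the rules name is not reported here. The members and lists were chosen with earlier results of these data known.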

Additional observations from a re-analysis of the deposited data

How the results depend on the processing

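The counts of called members were 9 of 10 between knockdown and scramble cells under all 17 alternatives, 9 or 10 between add-back and scramble cells, and 5 to 7 between add-back and knockdown cells, and the F test called 10 under each of its alternatives. The labels give each group replicates 1 to 3. Equal numbers deviated together at over 0.1 in 1 of 9 pairs (correlations from -0.01 to 0.12), and 5 of 9 libraries correlated best with their own number. These values do not settle whether equal numbers belong together. The labels name no shared source, so the numbers were not taken as pairs in the main fit. With the replicate number as a block the counts of called members were 9, 7 and 10, and Ltbp2 passed between add-back and scramble cells (adjusted p = 0.027). The block raised the called genes between add-back and knockdown cells from 1749 to 2678. Library totals as the scaling moved the share of higher calls there from 53.8% to 65.9%, with a shift of all genes of 0.03. Among the alternative values of members, 488 kept direction and call, 11 lost the call, 1 gained it and 10 changed sign. Changes of sign touched values near 0. Ltbp3 between knockdown and scramble cells turned to 0.000697 with no filter and 0.00577 with only the 2 groups, and Bmpr1a there to -0.0064 with library totals. With single libraries left out, values ran from -0.034 to 0.0395 for Ltbp3 in that comparison. Between add-back and knockdown cells they ran from -0.198 to 0.0482 for Tgfb3 (positive without knockdown replicate 3), -0.0136 to 0.0878 for Ltbp4, -0.239 to 0.0826 for Eng, -0.0802 to 0.0239 for Acvr1b, -0.0012 to 0.0268 for Usp15 and -0.0662 to 0.121 for Ccn2. Between add-back and scramble cells they ran from -0.0671 to 0.0367 for Bmpr1a, -0.0997 to 0.0103 for Bhlhe40 and -0.133 to 0.0582 for D030025P21Rik. The cause was not tested. Tgfb2 had 230 to 832 counts per library and Tgfb3 260 to 618, the fewest of the 10, and their changes had the largest SE between knockdown and scramble cells (0.11 for each).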
